A study of Mus musculus with 203 samples.

Results

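Oxidative phosphorylation is carried out by 5 enzyme complexes whose subunits are encoded in 2 genomes. Genes of these complexes were taken by their symbols alone, so any subunit with a symbol of another form was left out. Taken were the 13 protein-coding genes of the mitochondrial genome (mt-Nd1 to mt-Nd6, mt-Nd4l, mt-Cytb, mt-Co1 to mt-Co3, mt-Atp6 and mt-Atp8), and the nuclear genes named Nduf (A, B, C, S or V with a number), Sdha to Sdhd, Uqcr, Cyc1, Cox4 to Cox8 and Atp5, without annotated pseudogene symbols. This gave 98 of the 43346 genes in the table, 13 mitochondrially encoded and 85 nuclear-encoded. Each gene was placed in a complex by its symbol alone, here and below. This put 7 mitochondrially encoded and 36 nuclear genes in complex I and 4 nuclear genes in complex II. Complex III had 1 and 9, complex IV 3 and 19, and complex V 2 and 17. Of the 98, 96 passed the filter on low counts, with Cox7b2 and Cox8c, both testis isoforms, left out. The nuclear symbol Cox6c2 is annotated as a processed pseudogene but meets the rule and was kept.

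Complexes I and II pass electrons from NADH and succinate to ubiquinone, complex III passes them on to cytochrome c, and complex IV hands them to oxygen. Complexes I, III and IV pump protons across the inner membrane, and complex V, the ATP synthase, lets them flow back to make ATP. The mitochondrial genome is transcribed as long RNAs that are cut into the individual messages, so its genes share their transcription, whereas each nuclear gene has its own promoter and its protein is imported. Several small subunits of complex IV exist as isoform pairs, with one form found in most tissues and the other mainly in heart and skeletal muscle (Cox6a2, Cox7a1, Cox8b), in lung (Cox4i2) or in testis (Cox6b2).

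The libraries came from female Balb/C mice of 18 to 20 weeks and fall into 20 groups of 10 libraries each, other than 11 of 3-Airway-PBS and 12 of 3-Parenchyma-PBS. Lungs were separated by blunt dissection into airway and parenchyma. For 3 weeks mice received house dust mite extract (HDM) or PBS through the nose on 5 days a week. The 11-week groups went on to receive HDM or PBS 3 times a week from week 4, breathed air or cigarette smoke (CS) 2 times a day on 5 days a week for 8 weeks, and received dexamethasone (DEX) in week 11 or did not. The 3-week groups had no smoke and no dexamethasone. The labels name no genetic alteration. They do not tell whether an airway and a parenchyma library came from the same mouse, so p-values measure the spread between libraries.

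Each library held 13003154 to 40240733 counts (median 28090684). Airway libraries had more of the markers of ciliated cells (3-week PBS medians 1286.3 against 659.4 in CPM, read counts scaled to library size, summed over the list) and club cells (62914.2 against 31485.0) than parenchyma, and fewer of alveolar type I cells (3813.2 against 6314.7) and type II cells (19996.4 against 29089.0), in the direction of their labels. Cardiac muscle markers were also higher in airway than in parenchyma (1008.4 against 96.4 CPM in 3-week PBS). All libraries enter the values given unless stated, and counts were recomputed without 5 that stood apart, namely X32 (lowest total), X70 (highest skeletal muscle markers) and X63, X81 and X155 (lowest correlations with their own groups). In such tissue libraries, fewer cells of a type and less RNA per cell cannot be told apart.

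The mitochondrially encoded genes were far more abundant than the nuclear ones. On the scale of median CPM per kilobase of exon over all libraries, mt-Co1, the catalytic subunit of complex IV, led with 9566.7, followed by mt-Atp8 with 5458.2, mt-Cytb with 4511.6, mt-Nd1 with 3301.3 and mt-Nd4 with 3208.2. At the low end, mt-Nd3 reached 312.5 and mt-Nd6, the gene on the other strand of the mitochondrial genome, 54.1. These levels leave out counts assigned to near-identical copies on chromosome 1, described below. In median CPM the copy had 6663.7 beside 1077.9 for mt-Atp6, 5756.2 beside 660.8 for mt-Co2 and 552.3 beside 108.7 for mt-Nd3. For mt-Co1 the copy had 1769.1 beside 14780.5. The order of these genes thus depends on how reads were shared out. The nuclear-encoded members had a median of 44.3 CPM per kilobase and ran from 2.21 for Cox6c2 to 223.1 for Cox6b1. By complex, the nuclear medians of these levels lay close together, at 32.5 for complex I, 39.5 for complex II, 51.2 for complex III, 50.2 for complex IV and 46.3 for complex V.

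The share of all counts that fell on the 13 mitochondrially encoded genes was lower with HDM at 3 weeks. In airway it was 5.34%, 6.40% and 9.16% (lowest, median and highest library) with PBS and 2.97%, 4.18% and 6.76% with HDM, and the groups overlapped. In parenchyma it was 5.87%, 6.77% and 7.80% with PBS and 3.37%, 3.75% and 4.87% with HDM, and the groups did not overlap. The nuclear-encoded members took 0.820%, 0.919% and 1.140% of counts in PBS airway and 0.692%, 0.789% and 0.892% in HDM airway. In parenchyma the nuclear share was 0.756%, 0.854% and 0.942% with PBS and 0.695%, 0.806% and 0.901% with HDM, with wide overlap. The ratio of group medians, HDM over PBS, was thus 0.65 for the mitochondrially encoded and 0.86 for the nuclear share in airway, and 0.55 and 0.94 in parenchyma.

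At 11 weeks the parenchyma medians of the mitochondrially encoded share with PBS and HDM lay closer together than at 3 weeks. Both medians were lower than at 3 weeks, the PBS median by far more than the HDM median. Airway libraries from mice given PBS and air had a mitochondrially encoded share of 4.20%, 5.21% and 8.72%, against 3.00%, 3.5% and 3.96% with HDM and air, with no overlap. Their nuclear share was 0.686%, 0.815% and 1.210% with PBS and 0.615%, 0.693% and 0.776% with HDM, and overlapped. Parenchyma libraries had a mitochondrially encoded share of 3.31%, 3.94% and 4.84% with PBS and air and 2.62%, 3.40% and 3.55% with HDM and air. Here the nuclear share went the other way, from 0.525%, 0.639% and 0.744% with PBS to 0.578%, 0.719% and 0.787% with HDM. Over the 16 groups of 11 weeks, the median mitochondrially encoded share ran from 3.27% (parenchyma, smoke and dexamethasone) to 5.21% (airway, PBS and air), and the median nuclear share from 0.639% (parenchyma, PBS and air) to 0.828% (airway, smoke).

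**Figure D1:**
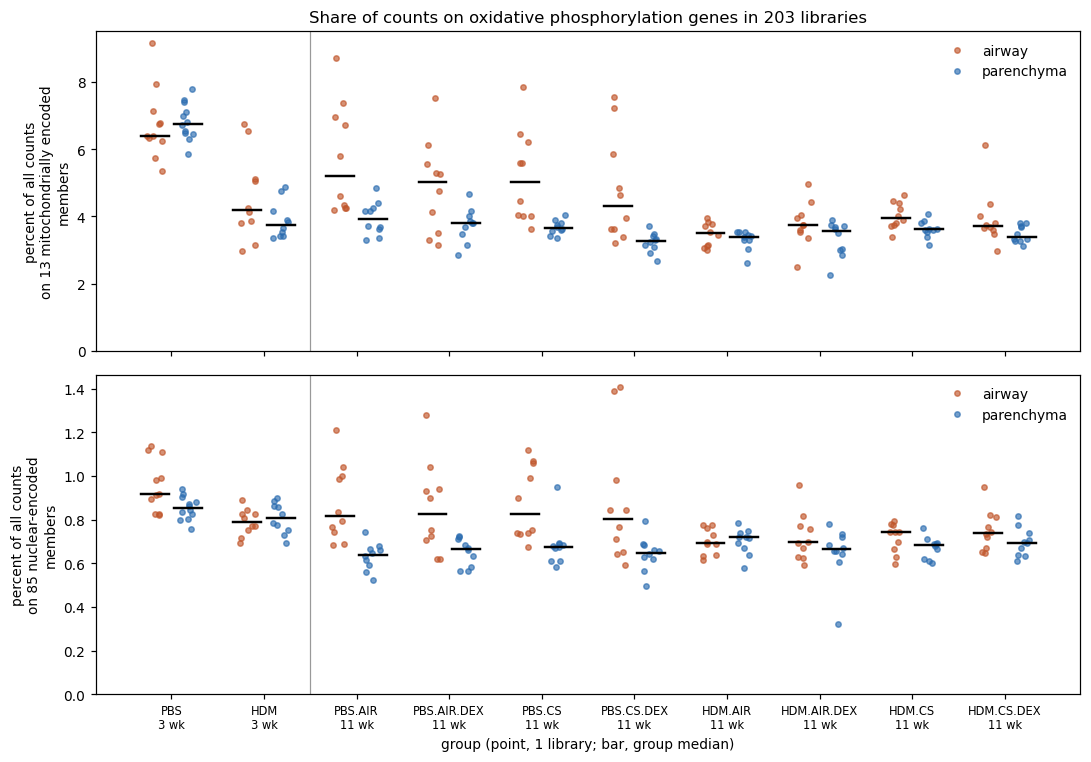
Percent of all counts on the 13 mitochondrially encoded genes (upper panel) and on the 85 nuclear-encoded members (lower panel) in each library of the 20 groups, with airway and parenchyma in separate colours. Points are libraries and bars are group medians. The parenchyma HDM libraries of 3 weeks lie between 3.37% and 4.87% for the mitochondrially encoded genes, all below the PBS libraries, while the nuclear shares of the same groups overlap.

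Among single genes, HDM at 3 weeks lowered most of the mitochondrially encoded messages in both compartments. By limma-voom, 9 of 13 were lower in airway and 10 of 13 in parenchyma at an adjusted p under 0.05. Of all 17381 genes tested, 40.5% were lower and 34.1% higher in airway, and 44.3% lower and 33.4% higher in parenchyma. The median log2 fold change of the 13 was -0.67 in airway and -0.87 in parenchyma, beside -0.07 and -0.13 over all genes. None was higher in either compartment (0 at an unadjusted p under 0.05, and 0 by edgeR or DESeq2). The median of the 13 stayed between -0.81 and -0.61 in airway and between -1.01 and -0.74 in parenchyma over all alternative settings.

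The gene mt-Nd2, a complex I subunit at chrM:3914-4951 (GRCm38), had 3305.0, 4938.6 and 5891.8 CPM in PBS airway and 1673.2, 2404.9 and 3603.7 CPM in HDM airway. In parenchyma it had 4072.4, 5017.0 and 6428.5 CPM with PBS and 1989.3, 2152.1 and 3140.1 CPM with HDM. The parenchyma groups did not overlap, and the airway groups did. Its log2 fold change was -0.96 ± 0.12 (SE, adjusted p = 1.3e-09) in airway and -1.17 ± 0.11 (adjusted p = 1.6e-12) in parenchyma. The gene mt-Co1 (chrM:5328-6872) fell by 0.66 on the log2 scale in airway (20730.5, 26286.7 and 33371.2 CPM with PBS, 11852.8, 16707.7 and 25180.6 with HDM, adjusted p = 9.3e-07). In parenchyma mt-Co1 went from 25870.0, 33240.2 and 37107.0 CPM to 13508.8, 16473.2 and 20903.0 CPM, with no overlap, a log2 fold change of -1.02 ± 0.11 (adjusted p = 1.6e-11). The core complex III gene mt-Cytb had log2 fold changes of -0.73 and -0.94, and the ATP synthase gene mt-Atp8 of -0.65 and -0.87.

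Not all 13 moved alike. The steepest log2 fold changes were those of mt-Nd3, at -1.4 in airway and -1.77 in parenchyma (adjusted p = 1e-06 and 3.6e-09), where the parenchyma libraries went from 270.6, 491.0 and 746.8 CPM to 67.6, 155.4 and 227.1 CPM without overlap. In contrast mt-Nd4l had log2 fold changes of 0.07 and 0.08 (adjusted p = 0.81 and 0.75), and mt-Co2 of -0.29 and 0.29 (adjusted p = 0.2 and 0.16). The large complex I gene mt-Nd5 had -0.09 (adjusted p = 0.49) in airway and -0.29 (adjusted p = 0.016) in parenchyma, and the latter missed the threshold under 6 alternatives, with DESeq2 giving an adjusted p of 0.067. For mt-Nd6 the values were -0.64 (adjusted p = 0.1) and -0.5 (adjusted p = 0.17), and without the 5 libraries that stood apart its airway value was -0.88 (adjusted p = 0.026).

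Part of these genes has near-identical copies in the nuclear genome. A stretch of chromosome 1 holds pseudogene copies of 7 of the 13, namely mt-Atp6, mt-Co1, mt-Co2, mt-Co3, mt-Nd3, mt-Nd4 and mt-Nd4l, and the table gives these copies counts of their own. The first 100 bases of mt-Nd3 (chrM:9459-9806, plus strand) and of its copy Gm28438 (chr1:24612775-24613119) are shown, with the single base at which the pair differ over 345 aligned bases in capitals, T3C counted from 1 at the start of mt-Nd3.
mt-Nd3: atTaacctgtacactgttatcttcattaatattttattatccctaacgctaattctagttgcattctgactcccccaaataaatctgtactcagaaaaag
Gm28438: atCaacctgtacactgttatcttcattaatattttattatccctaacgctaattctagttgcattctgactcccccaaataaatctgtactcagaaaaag
The other aligned bases are the same in both, and mt-Nd3, at 348 bases, runs on past the end of the aligned stretch.

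The copies took a large part of the counts for several genes. Over all libraries, the copy's percent of the counts of gene and copy together (lowest, median and highest library) was 45.3%, 89.7% and 96.8% for mt-Co2, 76.1%, 86.2% and 93.4% for mt-Atp6, 69.1%, 84.1% and 92.9% for mt-Nd3, and 63.1%, 69.1% and 87.6% for mt-Co3. It was 13.1%, 51.9% and 76.9% for mt-Nd4l, 0.554%, 10.8% and 19.0% for mt-Co1 and 0.00443%, 2.83% and 15.0% for mt-Nd4. The split between gene and copy therefore differed widely between genes and between libraries. When the counts of copies were added to their gene, an alternative chosen after the data had been seen, mt-Co2 was called lower in both compartments, with log2 fold changes of -0.83 in airway (adjusted p = 1.1e-07) and -1.02 in parenchyma (adjusted p = 2.7e-10). The values for mt-Atp6 became -0.92 and -1.28, for mt-Co3 -0.93 and -1.27, for mt-Nd3 -1.37 and -1.83, and for mt-Nd4l -0.23 (adjusted p = 0.17) and -0.32 (adjusted p = 0.047). With copies added, 10 of 13 were lower in airway and 12 of 13 in parenchyma. The 6 genes without such a copy had 4 and 5 lower, and the 7 with a copy 5 and 5 as deposited. The share of counts on gene and copies together was 8.46%, 10.8% and 14.4% with PBS and 4.6%, 6.63% and 10.6% with HDM in airway, and 10.0%, 12.1% and 13.6% and 5.38%, 5.91% and 7.82% in parenchyma.

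**Figure D2:**
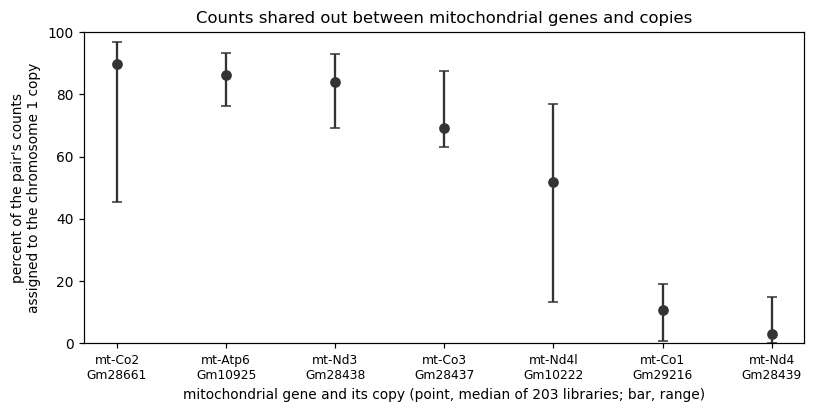
Percent of the counts of each mitochondrially encoded gene and its chromosome 1 copy together that the table assigns to the copy (y axis), for the 7 pairs (x axis). Points are medians over all libraries and bars run from the lowest to the highest library. The median is 89.7% for mt-Co2 and 86.2% for mt-Atp6, but 10.8% for mt-Co1 and 2.83% for mt-Nd4.

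The nuclear-encoded members also fell in airway at 3 weeks, with a smaller median change. Of 83 tested, 65 were lower (by limma-voom, with 40.5% of all genes lower), and none was higher (0 at an unadjusted p under 0.05, and 0 by edgeR or DESeq2). Without the 5 libraries that stood apart, 62 were lower and 1, Atp5b, was higher (0.23, adjusted p = 0.026). Their median log2 fold change was -0.44, beside -0.07 for all genes, and -0.45 to -0.37 over the alternatives. All complexes but complex II, with 1 of 4 lower, had most of their members lower, with 33 of 36 in complex I (median -0.49), 6 of 9 in complex III (-0.37), 12 of 17 in complex IV (-0.53) and 13 of 17 in complex V (-0.38). A chosen list of 13 subunits, called core here, had 4 lower and a median of -0.09. It does not hold every subunit with a redox centre or a membrane-spanning part, since Sdhc and Sdhd are not in it.

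In parenchyma some nuclear members rose while others fell. There 47 of 83 were lower and 14 higher (44.3% and 33.4% of all genes), with a median of -0.25 beside -0.13 for all genes. Over the alternatives the nuclear median ran from -0.28 to -0.13. The highest of these came from scaling without the mitochondrially encoded genes, which moved the median of all genes by 0.12, to -0.01. Complex I had 24 lower and 3 higher, complex III 5 and 2, complex IV 9 and 2, complex V 9 and 4, and complex II 0 and 3. The members that rose were Ndufs1, Ndufa10 and Ndufv3 of complex I, Sdhb, Sdhc and Sdhd of complex II, Uqcrc1 and Uqcrc2 of complex III, Cox5b and Cox6b1 of complex IV, and Atp5a1, Atp5b, Atp5c1 and Atp5g1 of complex V. Atp5g1 has a pseudogene copy, Gm10039, with 99.8% identity over 411 bases and 1.588 times the median level of the gene. Its values here and below thus depend on how reads were shared out. Of the 13 core subunits 7 were higher and 0 lower.

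The catalytic beta subunit of ATP synthase, Atp5b (chr10:128083273-128090391), had 314.9, 359.8 and 512.3 CPM in PBS parenchyma and 587.6, 653.9 and 706.1 CPM in HDM parenchyma, without overlap (log2 fold change 0.73 ± 0.09, adjusted p = 3.3e-09). In airway it had 385.6, 496.1 and 825.9 CPM with PBS and 549.9, 628.9 and 694.6 CPM with HDM, with overlap (0.17 ± 0.1, adjusted p = 0.11). Uqcrc1 (chr9:108936633-108949623), a core protein of complex III, had 62.2, 72.7 and 99.2 CPM in PBS parenchyma and 100.9 to 128.2 CPM (lowest and highest) in HDM parenchyma, again without overlap (0.55 ± 0.08, adjusted p = 2e-07). Its airway log2 fold change was 0.12 ± 0.09 (adjusted p = 0.23). Sdhb, the iron-sulphur subunit of complex II, went from 62.9, 83.7 and 99.8 CPM to 94.6, 114.6 and 128.1 CPM in parenchyma (0.43 ± 0.09, adjusted p = 2e-05), with overlap. Uqcrc2 had 0.45 ± 0.09 (adjusted p = 2.1e-05) in parenchyma and 0.01 ± 0.1 (adjusted p = 0.96) in airway.

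Of the accessory subunits of complex I, 3 with low values are described here, chosen after their values were seen. Ndufa5 went from 50.6, 66.6 and 96.3 CPM to 20.9, 31.4 and 40.4 CPM in airway, and from 58.8, 80.2 and 99.1 CPM to 24.7, 36.6 and 44.2 CPM in parenchyma. Neither pair of groups overlapped, and the log2 fold changes were -1.16 ± 0.12 (adjusted p = 7e-12) and -1.24 (adjusted p = 3.8e-13). Ndufc2 likewise fell without overlap, by 0.75 in airway and 0.82 in parenchyma on the log2 scale (adjusted p = 1.1e-11 and 2.4e-13). Ndufb4 fell by 1.07 in airway (adjusted p = 1.6e-08) and by 1.34 in parenchyma (adjusted p = 2.2e-11), in the latter from 15.4, 25.7 and 32.7 CPM to 6.23, 10.4 and 13.2 CPM. Adding the counts of its copy Ndufb4c, identical over 390 bases, made the parenchyma value -0.84. The copy had 4.295 times the median level of the gene, so the values of Ndufb4 here and below depend on how reads were shared out.

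**Figure D3:**
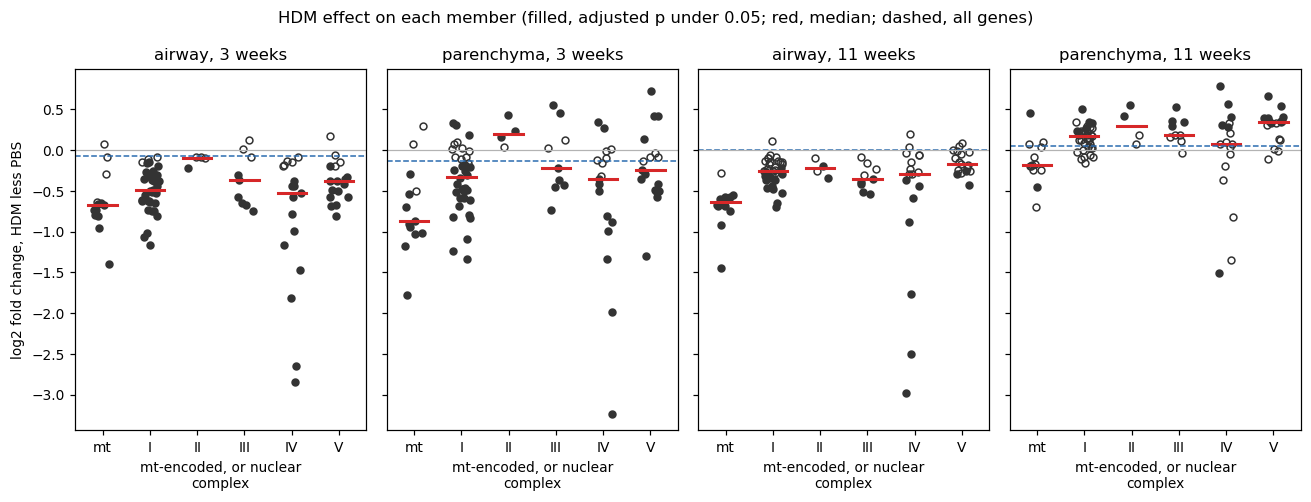
Log2 fold change, HDM less PBS (y axis), of each member in 4 panels, airway and parenchyma at 3 and at 11 weeks, with the mitochondrially encoded genes and the nuclear members of complexes I to V along the x axis. Filled points have an adjusted p under 0.05, red bars are class medians and the dashed line is the median of all genes tested. At 3 weeks the mitochondrially encoded median is -0.67 in airway and -0.87 in parenchyma, and the lowest complex IV points are Cox8b at -2.84 and -3.23.

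Within the nuclear members, fold change went with the length of the gene's exons. Over 82 protein-coding nuclear members, Spearman's correlation of log2 fold change with exon length was 0.39 in airway and 0.37 in parenchyma at 3 weeks, beside 0.11 and 0.01 over 15263 protein-coding genes. Genes are not independent replicates, and these values share libraries, so they are a description. The shorter 41 members had a median log2 fold change of -0.53 in airway and -0.41 in parenchyma, and the longer 41 had -0.33 and -0.09. At 11 weeks the correlations were 0.18 and 0.19, beside -0.01 and -0.17. The median exon length of the members was 1578 bases, against 4287 for all protein-coding genes tested. Cytosolic ribosomal protein genes, also short, had 68 of 81 lower and 2 higher in airway, and 62 lower and 5 higher in parenchyma. The shares of all genes were 40.5% lower and 34.1% higher in airway, and 44.3% and 33.4% in parenchyma. The part of gene length in these results was not tested.

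Cox8b and Cox7a1, isoforms restricted to some tissues, had the lowest log2 fold changes of the nuclear members in both compartments. All 5 that could be tested (Cox4i2, Cox6a2, Cox6b2, Cox7a1 and Cox8b) were lower in airway, with a median of -1.81, and 4 in parenchyma, with a median of -1.34. Of 6 isoforms found in most tissues, the partners of these 5 and Cox7b, whose restricted partner Cox7b2 was not tested, 3 were lower in airway (median -0.28), and 1 was lower and 1 higher in parenchyma (median -0.11). The shares of all genes were 40.5% lower and 34.1% higher in airway, and 44.3% and 33.4% in parenchyma. Cox8b (chr7:140898945-140900446, minus strand) had 5.11, 12.2 and 60.8 CPM in PBS airway and 0.271, 1.91 and 22.2 CPM in HDM airway, with overlap (-2.84 ± 0.54, adjusted p = 1.2e-05). In parenchyma Cox8b was low throughout, at 1.16, 2.23 and 3.14 CPM with PBS and 0.0867, 0.24 and 0.457 CPM with HDM, without overlap (-3.23 ± 1.17, adjusted p = 0.012), and this call was lost with the libraries of both durations in one fit (adjusted p = 0.057) and with a filter at a CPM of 10 (adjusted p = 0.068). Cox7a1 (chr7:30184144-30186078) went from 8.92, 19.1 and 58.1 CPM to 1.32, 3.42 and 10.3 CPM in airway (-2.65 ± 0.38, adjusted p = 4.8e-08) and from 4.64, 7.61 and 11.4 CPM to 0.997, 2.0 and 3.16 CPM in parenchyma (-1.98 ± 0.51, adjusted p = 0.00057).

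Cox6a2 and Cox4i2 followed the compartments in different ways. Cox6a2 (chr7:128205435-128206387) fell in airway from 7.79, 18.0 and 65.8 CPM to 3.86, 5.47 and 11.1 CPM (-1.81 ± 0.34, adjusted p = 7.2e-06). In parenchyma it had 3.53, 5.66 and 8.32 CPM with PBS and 2.92, 5.02 and 8.24 CPM with HDM (-0.32 ± 0.43, adjusted p = 0.5), and the difference between the effects, -1.49 ± 0.55, missed the threshold (adjusted p = 0.052). Cox4i2 (chr2:152754173-152765037), the form known from lung, was the one of the 5 that was higher in parenchyma than in airway. It fell from 5.89, 15.3 and 29.1 CPM to 2.19, 6.74 and 12.9 CPM in airway (-1.16 ± 0.23, adjusted p = 2.1e-05) and from 22.1, 29.9 and 39.8 CPM to 8.65, 13.7 and 15.7 CPM in parenchyma, without overlap (-1.34 ± 0.19, adjusted p = 4.8e-08). The testis form Cox6b2 fell without overlap in both, by 0.99 and 0.88 on the log2 scale (adjusted p = 1.2e-10 and 2.2e-09).

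As a percent of the counts of the isoform pair, the restricted form had airway medians with PBS and HDM of 9.02% and 4.85% for Cox4i2, 15.1% and 6.20% for Cox6a2, 16.2% and 4.48% for Cox7a1, 16.0% and 3.29% for Cox8b and 2.19% and 1.17% for Cox6b2. In parenchyma the medians were 15.5% and 7.43% for Cox4i2, 5.00% and 4.37% for Cox6a2, 6.35% and 2.25% for Cox7a1, 2.96% and 0.198% for Cox8b and 2.51% and 1.23% for Cox6b2. Single airway libraries with PBS reached 46.2% for Cox8b and 36.7% for Cox6a2.

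**Figure D4:**
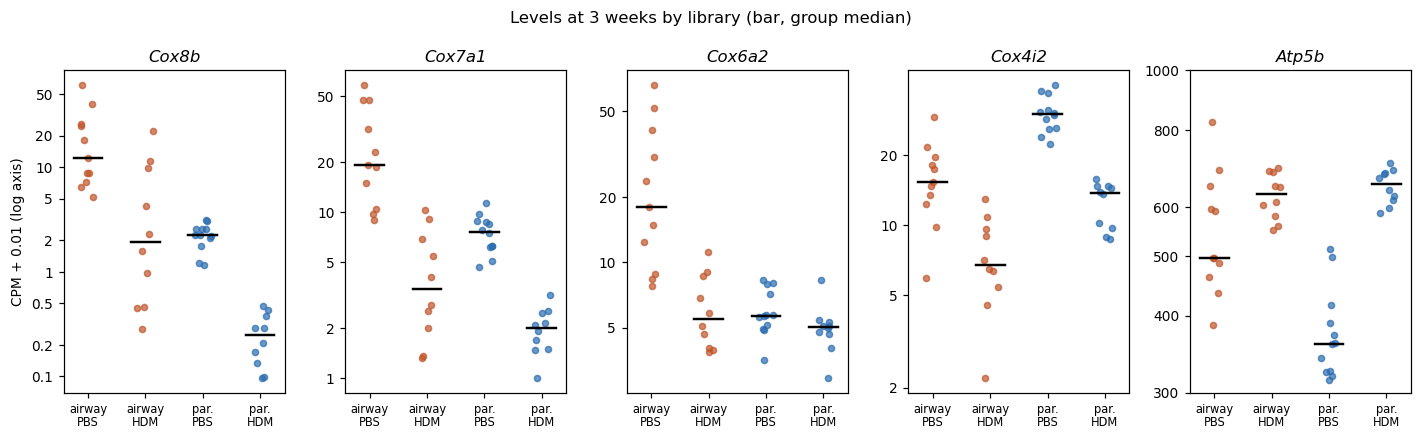
Levels (CPM + 0.01, log axis) of Cox8b, Cox7a1, Cox6a2 and Cox4i2, isoforms restricted to some tissues, and of Atp5b, in each 3-week library by compartment and exposure. Points are libraries and bars are group medians. Cox8b runs from 5.11 to 60.8 CPM in PBS airway and from 0.0867 to 0.457 CPM in HDM parenchyma, Cox4i2 is higher in parenchyma than in airway with PBS, and Atp5b is higher with HDM in every parenchyma library.

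Markers of cardiac muscle and of fat moved with these isoforms in airway. Of all genes, 40.5% were lower and 34.1% higher with HDM in airway at 3 weeks, and 44.3% and 33.4% in parenchyma. All 14 cardiac markers tested were lower with HDM in airway at 3 weeks, and their summed level was 471.1, 1008.4 and 6557.7 CPM with PBS and 83.8, 326.3 and 1286.4 CPM with HDM. Of 10 adipose markers 9 were lower, with a sum of 196.4, 477.9 and 1475.1 CPM against 31.4, 70.1 and 861.1 CPM. In parenchyma 1 of 14 cardiac and 2 of 10 adipose markers were lower, and the cardiac sum had a median of 96.4 CPM with PBS (lowest 82.6) and of 63.7 CPM with HDM (lowest 40.8), with overlap. The cardiac transcription factor Nkx2-5 was at 0 in every parenchyma library with HDM, as it was at 11 weeks in every parenchyma library with PBS and air. Markers of immune cells rose in both compartments, with 10 of 10 neutrophil and 9 of 9 lymphocyte markers higher in each, and 9 of 10 macrophage markers. Summed macrophage markers went from 4274.5, 6547.6 and 7284.0 CPM to 8138.5, 12217.4 and 24025.7 CPM in airway and from 6317.6, 8367.1 and 11457.3 CPM to 17757.0, 20497.4 and 24639.0 CPM in parenchyma. All 8 endothelial markers, 6 of 7 alveolar type I, 8 of 9 ciliated and 6 of 7 club markers were lower in each compartment. Alveolar type II markers had 2 of 9 higher and 2 lower in airway and 2 higher and 3 lower in parenchyma. Smooth muscle markers had 4 of 8 lower in airway, and 1 higher and 1 lower in parenchyma, and skeletal muscle markers had 1 of 7 higher and 4 lower, and 1 and 1. The part of these cell types in the results for the members was not tested.

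Promoters are shown for one isoform pair and for one nuclear member that rose in parenchyma, since each nuclear gene is read from its own promoter. Each window of 300 bases runs from upstream of the start to 50 bases after it in RefSeq (GRCm38.p6). For Cox8b (chr7:140900397-140900696, minus strand) capitals mark the TATA box letters TATAAA. For Cox8a (chr19:7217567-7217866, minus strand), its partner found in most tissues, capitals mark CTTCCGG, the ETS letters CCGGAAG read on the other strand. For Uqcrc1 (chr9:108936398-108936697, plus strand) capitals mark the letters of the NRF1 motif.
Cox8b: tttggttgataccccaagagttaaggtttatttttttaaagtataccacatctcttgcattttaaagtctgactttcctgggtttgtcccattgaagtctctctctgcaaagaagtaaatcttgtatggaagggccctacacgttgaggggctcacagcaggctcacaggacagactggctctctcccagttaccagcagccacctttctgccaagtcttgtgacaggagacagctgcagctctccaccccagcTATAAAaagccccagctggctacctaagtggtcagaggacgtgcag
Cox8a: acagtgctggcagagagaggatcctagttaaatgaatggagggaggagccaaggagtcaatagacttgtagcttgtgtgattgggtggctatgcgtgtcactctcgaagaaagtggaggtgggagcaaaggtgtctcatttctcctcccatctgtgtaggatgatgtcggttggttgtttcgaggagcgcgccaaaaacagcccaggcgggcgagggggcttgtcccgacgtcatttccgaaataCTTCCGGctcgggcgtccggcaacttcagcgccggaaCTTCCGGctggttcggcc
Uqcrc1: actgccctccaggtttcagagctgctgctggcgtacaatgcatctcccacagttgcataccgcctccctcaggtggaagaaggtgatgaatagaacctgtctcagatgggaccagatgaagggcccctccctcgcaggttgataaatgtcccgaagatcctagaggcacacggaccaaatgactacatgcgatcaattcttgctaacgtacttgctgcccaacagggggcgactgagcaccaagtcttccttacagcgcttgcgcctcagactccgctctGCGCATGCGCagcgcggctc
The Cox8b window held the letters TATAAA at position 4 from the annotated start, thus after it, and neither ETS nor NRF1 letters. The Cox8a window held the ETS letters at 2 places, -5 and 32 from its start.

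Of the 85 nuclear members, 66 had a promoter in the RefSeq table. Searched on both strands, the NRF1 letters, those in capitals in the Uqcrc1 window, stood in 5 of the 66 (7.58%) and in 0.977% of all 27025 promoters. Of the members that rose with HDM in parenchyma at 3 weeks and had a promoter there, only Uqcrc1 held the NRF1 letters. The ETS letters CCGGAAG stood in 15 of the 66 (22.7%) against 9.12%, and the YY1 letters AAGATGGCG in 6 (9.09%) against 1.49%. For the ERR letters AAGGTCA it was 8 (12.1%) against 4.66%. Other letters were about as common among members as elsewhere, with GGGCGG (Sp1) in 39.4% against 35.9%, CANNTG (E-box) in 69.7% against 72.1% and TATAAA in 10.6% against 14.2%. Matches of different letters may overlap one another. The member promoters were richer in G and C, with a median of 57.2% against 52.7% for all promoters. The part of base composition in these shares was not tested. Of the restricted isoforms Cox6b2, Cox7a1, Cox8b and Cox7b2 had a promoter in the table, and none of these held the NRF1, ETS, YY1 or ERR letters. TATAAA stood in those of Cox8b and of Cox7b2, which failed the filter on low counts. A match of letters describes the window and does not show a bound site.

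The difference between compartments in the response to HDM at 3 weeks was tested as an interaction. Of the nuclear members 17 of 83 had a lower log2 fold change in airway than in parenchyma, while 6.44% of all genes did, and 1 (Atp5s, 0.49) had a higher one, while 10.8% of all genes did. The median difference was -0.16 for nuclear members and 0.06 for all genes. No mitochondrially encoded gene differed (limma-voom, with 1 higher and 1 lower at an unadjusted p under 0.05, and 0 by edgeR or DESeq2), and their median difference was 0.20. The 17 were Ndufa8, Ndufa9, Ndufa10, Ndufs1, Ndufv1 and Ndufv3, all 4 Sdh genes, Uqcrc1, Uqcrc2, Cox6b1, Atp5a1, Atp5b, Atp5c1 and Atp5g1. For Atp5b the difference was -0.56 ± 0.14 (adjusted p = 0.0047), for Sdhb -0.51 ± 0.12 (adjusted p = 0.0042) and for Uqcrc1 -0.43 ± 0.12 (adjusted p = 0.012). Scaling without the mitochondrially encoded genes raised the 17 to 30, and it moved the median of all genes by -0.12.

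Part of the members already differed between compartments without HDM. In 3-week PBS libraries 25 of 83 nuclear members were higher and 5 lower in airway than in parenchyma (24.3% and 31.7% of all genes), and of the mitochondrially encoded genes mt-Co2 was higher (0.67) and mt-Co1 lower (-0.28). The median was 0.04 for nuclear members and -0.05 for the mitochondrially encoded genes. The widest were Cox8b (2.79 ± 0.55, adjusted p = 3.5e-05), Cox6a2 (1.8 ± 0.34, adjusted p = 2.1e-05) and Cox7a1 (1.59 ± 0.31, adjusted p = 3.8e-05) on the airway side, and Cox4i2 (-0.99 ± 0.17, adjusted p = 7e-06), Ndufb4 (-0.42, adjusted p = 0.0022) and Ndufc2 (-0.26, adjusted p = 0.0025) on the parenchyma side. Of the 17 genes above, Atp5b (0.56), Uqcrc2 (0.48) and Uqcrc1 (0.42) were among those higher in airway with PBS. With copies added, mt-Co2 no longer differed at the threshold (-0.14, adjusted p = 0.31).

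At 11 weeks, HDM with air lowered 12 of 13 mitochondrially encoded genes and 32 of 83 nuclear members in airway, while 29.8% of all 18250 genes were lower. None of either kind was higher (0 at an unadjusted p under 0.05, and 0 by edgeR or DESeq2), while 31.3% of all genes were. The medians were -0.63 and -0.26, beside 0.00 for all genes. The nuclear count was 51 without the 5 libraries that stood apart and 49 by DESeq2. By complex, 15 nuclear genes of complex I were lower, 2 of II, 5 of III, 7 of IV and 3 of V, and 4 of the 13 core subunits (median -0.23). The gene mt-Nd2 went from 2709.6, 3769.1 and 6707.2 CPM to 1670.1, 2052.8 and 2305.2 CPM, without overlap (-0.92 ± 0.12, adjusted p = 9e-12). The one mitochondrially encoded gene not called was mt-Co2 (-0.28, adjusted p = 0.2), and mt-Nd6 had the lowest value (-1.44, adjusted p = 0.00066). The muscle isoforms fell here too. Cox7a1 went from 7.4, 27 and 50.5 CPM to 2.2, 3.46 and 7.26 CPM without overlap (-2.5 ± 0.46, adjusted p = 9.2e-07), and Cox6a2 from 10.0, 24.1 and 43.7 CPM to 3.5, 6.87 and 9.77 CPM without overlap (-1.76 ± 0.25, adjusted p = 3.4e-10). Summed cardiac markers went from 469.1, 1982.4 and 4438.9 CPM to 113.5, 366.2 and 742.8 CPM in the same libraries, and 8 adipose markers were lower.

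In parenchyma 26 of 83 nuclear members were higher with HDM at 11 weeks and 1, Cox4i2, was lower, with 32.6% of all genes higher and 26.9% lower, so the share of members that was higher is near that of all genes while the share that was lower is not. Their median was 0.18, beside 0.05 for all genes and -0.18 for the mitochondrially encoded genes, of which mt-Co2 was higher (0.46, adjusted p = 0.024) and mt-Nd2 lower (-0.45 ± 0.11, adjusted p = 0.00037). With the libraries of both durations in one fit 16 nuclear members were higher, and with copies added no mitochondrially encoded gene was. The genes that rose included 10 of 17 in complex V (median 0.35), 5 in complex I, 2 in II, 4 in III and 5 in IV, and 8 of the 13 core subunits (median 0.34). Atp5b had 394.8, 440.4 and 503.6 CPM with PBS and 418.2, 530.2 and 716.4 CPM with HDM, with overlap (0.36 ± 0.11, adjusted p = 0.0033). Cox5a, a subunit of complex IV, had 26.8, 40.8 and 61.4 CPM with PBS and 42.8, 66.2 and 92.6 CPM with HDM (0.79, adjusted p = 2.3e-05). Cox4i2 fell from 27.6, 44.9 and 57.6 CPM to 11.0, 14.7 and 24 CPM, without overlap (-1.51 ± 0.15, adjusted p = 9.7e-17). For Cox8b and Cox7a1 the parenchyma values were -1.35 ± 1.57 (adjusted p = 0.47) and -0.82 ± 0.65 (adjusted p = 0.28). The skeletal muscle sum of library X70 in this group was 4380.2 CPM, and without the 5 libraries Cox8b had -1.87 ± 1.67 (adjusted p = 0.34).

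The 11-week difference between compartments, a comparison added after the data had been seen, was again on the side of lower values in airway. Of 83 nuclear members 46 had a lower log2 fold change in airway than in parenchyma and 1, Cox4i2 (0.92), a higher one, with 14.9% and 12.7% of all genes. Of the mitochondrially encoded genes 8 were lower and 0 higher (0 at an unadjusted p under 0.05, and 0 by edgeR or DESeq2). The medians were -0.45 for nuclear members, -0.49 for mitochondrially encoded genes and 0.02 for all genes. Cox6a2 had -1.57 ± 0.39 (adjusted p = 0.0013) and Atp5b -0.58 (adjusted p = 0.0034). With PBS and air, airway was the higher of the compartments for 10 of 13 mitochondrially encoded genes and 63 of 83 nuclear members, and parenchyma for 0 and 1, while 26.3% of all genes were higher and 30.1% lower in airway. No mitochondrially encoded gene was lower at an unadjusted p under 0.05, by edgeR or by DESeq2. The medians were 0.55 and 0.40, beside -0.03 for all genes. Cox8b differed by 4.16 ± 1.01 (adjusted p = 0.00019) and Cox7a1 by 2.56 ± 0.47 (adjusted p = 9e-07), both without overlap, and Cox4i2 by -1.19 ± 0.15 (adjusted p = 2.2e-12).

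**Figure D5:**
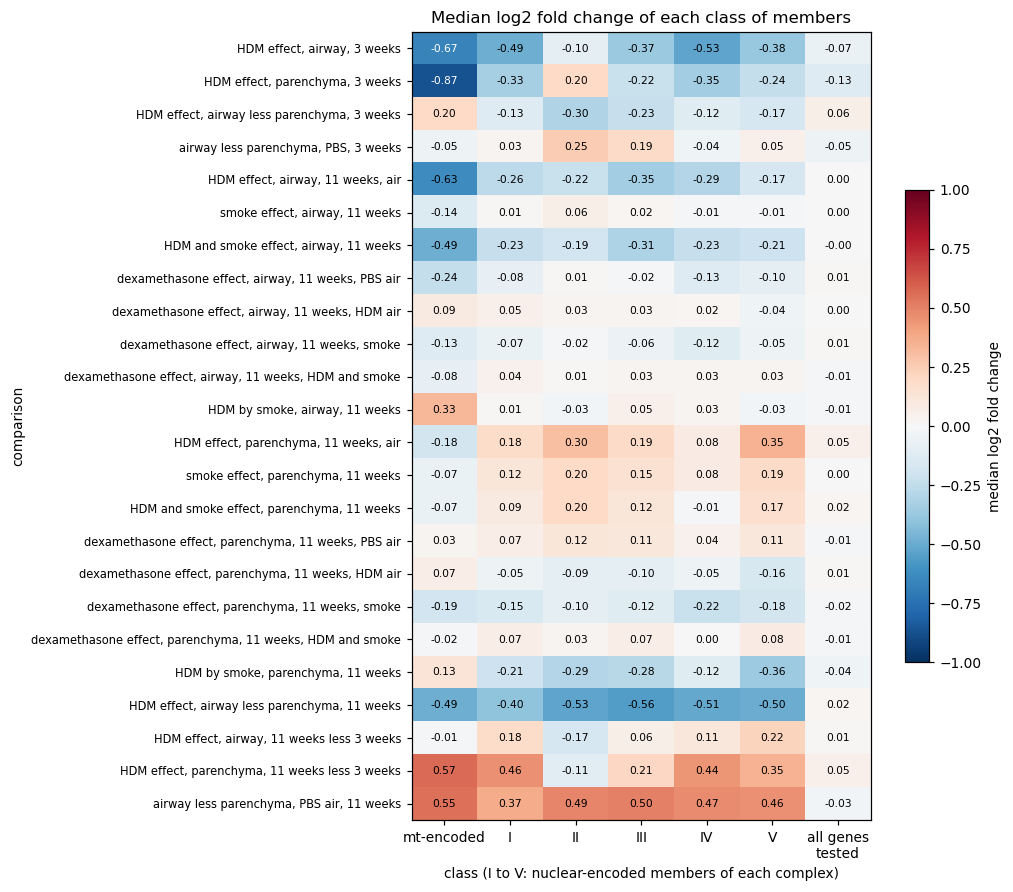
Heat map of the median log2 fold change in each of the 24 comparisons (y axis) for the mitochondrially encoded genes, the nuclear members of complexes I to V and all genes tested (x axis). Each cell gives its value, with red above and blue below 0. For HDM in parenchyma complex V has -0.24 at 3 weeks and 0.35 at 11 weeks, while the mitochondrially encoded genes have -0.87 and -0.18.

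The HDM effects at 11 weeks and at 3 weeks were set against each other in one fit of all libraries, also added after the data had been seen. In parenchyma the log2 fold change was higher at 11 weeks for 7 of 13 mitochondrially encoded genes and 38 of 83 nuclear members, and lower for 0 and 3, while it was higher for 21.5% and lower for 20.9% of all genes. No mitochondrially encoded gene was lower at an unadjusted p under 0.05, by edgeR or by DESeq2. The medians of the difference were 0.57 and 0.35. In parenchyma the median mitochondrially encoded share was much lower at 11 than at 3 weeks with PBS, and slightly lower with HDM. The higher log2 fold changes of these genes thus do not show a rise of their level with HDM. For mt-Co1 the difference was 0.7 ± 0.16 (adjusted p = 0.0002) and for Ndufb4 1.16 ± 0.24 (adjusted p = 2e-05). In airway 2 mitochondrially encoded genes (mt-Nd4l, -0.8, and mt-Nd5, -0.56) and 3 nuclear members (Ndufs1, Uqcrc2 and Atp5b) were lower at 11 weeks, and 4 nuclear members (Ndufc2, Cox6b2, Cox7a2l and Atp5s) were higher, while 13.9% of all genes were lower and 14.5% higher. None of the 13 was higher at an unadjusted p under 0.05, by edgeR or by DESeq2. Duration and any other difference between the 3-week and the 11-week mice cannot be told apart.

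Smoke alone touched few members. All 11-week contrasts with the PBS and air group share those control libraries. In airway, smoke changed 1 of 96 members, Cox6a2, which fell from 10.0, 24.1 and 43.7 CPM to 7.47, 11.7 and 27.8 CPM (-0.74 ± 0.21, adjusted p = 0.0067), while 6.03% of all genes were lower and 7.66% higher. Among the mitochondrially encoded genes none was called (1 lower at an unadjusted p under 0.05, and 0 by edgeR or DESeq2), and no nuclear member was higher by any of these. In parenchyma smoke raised 5 nuclear members, Sdhd (0.3), Cox5a (0.43), Atp5a1 (0.19), Atp5f1 (0.33) and Atp5g1 (0.35), and lowered Cox4i2, while 17.7% of all genes were higher and 18.2% lower. Cox4i2 had 27.6, 44.9 and 57.6 CPM with air and 21.3, 28.9 and 36.8 CPM with smoke, with overlap (-0.58 ± 0.14, adjusted p = 0.00042). No mitochondrially encoded gene was called in parenchyma (0 at an unadjusted p under 0.05, and 0 by edgeR or DESeq2).

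With HDM and smoke together, airway had 11 of 13 mitochondrially encoded genes and 24 of 83 nuclear members lower than with PBS and air, and 0 higher (0 at an unadjusted p under 0.05, and 0 by edgeR or DESeq2), while 23.8% of all genes were lower and 25.2% higher. The medians were -0.49 and -0.24, and the nuclear count was 41 without the 5 libraries that stood apart. Cox8b was among them (-2.03, adjusted p = 0.0045). In parenchyma mt-Nd2 (-0.29, adjusted p = 0.028) and Cox4i2 were lower and 5 nuclear members higher, namely Sdhd (0.4), Cox5a (0.51), Atp5a1 (0.19), Atp5c1 (0.21) and Atp5f1 (0.36), while 22% of all genes were lower and 25.4% higher. None of the mitochondrially encoded genes was higher (0 at an unadjusted p under 0.05, and 0 by edgeR or DESeq2). Cox4i2 had 16.5, 22.4 and 28.2 CPM (-0.94 ± 0.14, adjusted p = 1.2e-08), between the values with HDM alone and with smoke alone.

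The interaction of HDM and smoke asks whether the HDM effect differed between smoke and air. In airway it was positive for mt-Nd2 (0.51 ± 0.17, adjusted p = 0.021) and mt-Nd5 (0.46, adjusted p = 0.025), with 7.72% of all genes higher and 11.4% lower. The mt-Nd2 levels under smoke were 2258.1, 3193.0 and 5463.4 CPM with PBS and 2114.3, 2446.0 and 2921.0 CPM with HDM, a smaller gap than under air. No nuclear member was called (2 higher and 0 lower at an unadjusted p under 0.05, 1 higher by edgeR and 1 by DESeq2). In parenchyma Cox4i2 had an interaction of 1.15 ± 0.21 (adjusted p = 3.2e-06), and 9 nuclear members had a negative one, while 17.3% of all genes were higher and 18.7% lower. Most of these belong to ATP synthase, with Atp5a1 (-0.36), Atp5b (-0.39), Atp5c1 (-0.32), Atp5e (-0.56), Atp5f1 (-0.36), Atp5g1 (-0.75, adjusted p = 0.00025) and Atp5g3 (-0.39), beside Sdhd (-0.44) and Cox5a (-0.71, adjusted p = 0.014). Atp5g1, a subunit of the rotating ring, had 8.92, 16.3 and 19.1 CPM with PBS and air, 15.9, 23.1 and 28.3 with HDM and air, 12.6, 18.5 and 31.4 with PBS and smoke and 13.3, 18.4 and 22.5 with both. These levels leave out the counts assigned to its copy Gm10039. No mitochondrially encoded gene was called there (0 higher and 1 lower at an unadjusted p under 0.05, and 0 by edgeR or DESeq2).

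Dexamethasone changed few members. None of the 13 mitochondrially encoded genes was called in any of the 8 comparisons of libraries with and without it. At an unadjusted p under 0.05, 3 were lower in airway with PBS and air, 1 was lower in parenchyma with smoke and 1 higher in parenchyma with PBS and air, and edgeR and DESeq2 called 0. In airway with HDM and air, 3 nuclear members were higher, Cox4i2 (0.44, adjusted p = 0.039), Cox6a2 (0.74, adjusted p = 0.028) and Cox6b2 (0.48, adjusted p = 0.0099), while 12.5% of all genes were higher and 16.0% lower. Cox6a2 had 3.5, 6.87 and 9.77 CPM without and 6.29, 10.2 and 22.7 CPM with dexamethasone there. In parenchyma with PBS and air Cox6a2 was the one member higher (8.56, 10.9 and 20.2 CPM against 3.96, 6.13 and 9.81 CPM, 0.86 ± 0.27, adjusted p = 0.013), while 10.6% of all genes were higher and 12.0% lower. In parenchyma with HDM and air Atp5c1 (-0.26) and Atp5g1 (-0.34) were lower, with 12.2% of all genes higher and 16.2% lower, and with smoke Cox5a was lower (-0.51, adjusted p = 0.024), with 7.39% higher and 9.49% lower.

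In the remaining 4 comparisons with dexamethasone no nuclear member was called by limma-voom. In airway with PBS and air, 8.03% of all genes were higher and 6.85% lower, with smoke 4.68% and 6.6%, and with HDM and smoke 2.25% and 7.05%. In parenchyma with HDM and smoke 2.46% of all genes were higher and 5.4% lower. At an unadjusted p under 0.05, nuclear members numbered 1 higher and 2 lower in airway with PBS and air, 1 higher with smoke, 2 higher with HDM and smoke and 0 in parenchyma with HDM and smoke, and edgeR and DESeq2 called 0 in each of these. In the direction with no call in the other comparisons, the unadjusted counts were 1 lower in airway with HDM and air, 2 higher in parenchyma with HDM and air, 1 lower in parenchyma with PBS and air and 1 higher in parenchyma with smoke, the last of which edgeR and DESeq2 each called.

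Other genes of energy metabolism moved in different directions with HDM at 3 weeks. Of all genes, 40.5% were lower and 34.1% higher in airway, and 44.3% and 33.4% in parenchyma. Of 18 glycolysis genes 15 were higher and 2 lower in airway (median 0.68), and 16 and 2 in parenchyma (median 1.1). Hk3, a hexokinase of white blood cells, led with 2.30 and 3.12, whereas Eno3, the muscle enolase, fell by 1.69 in airway and Pfkm, the muscle phosphofructokinase, by 0.85 in parenchyma. Of 19 fatty acid oxidation genes 17 were lower in airway (median -0.54), with Cpt1b, the muscle carnitine palmitoyltransferase, at -1.42 and Etfdh at -0.24 the ends of the range. In parenchyma 12 were lower and 2 higher (median -0.35), from Acaa2 at -1.12 to Hadha at 0.55. The citric acid cycle had 4 of 13 lower and 1 higher in airway and 2 lower and 7 higher in parenchyma, where Cs, citrate synthase, rose by 0.83 and Sucla2 fell by 0.63. Assembly factors of the complexes had 29 of 47 lower and 8 higher in airway, and 29 and 9 in parenchyma, with Coa5 at 0.70 and 0.78 the highest, and Ndufaf8 (-0.76, airway) and Pet117 (-1.47, parenchyma) the lowest.

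Genes that copy and read mitochondrial DNA had 15 of 28 lower and 6 higher in airway, and 16 and 5 in parenchyma. The shares of all genes were 40.5% lower and 34.1% higher in airway, and 44.3% and 33.4% in parenchyma. The mitochondrial RNA polymerase Polrmt had 0.37 in airway and the RNA-binding Lrpprc 0.43 in parenchyma, the highest called values, and Mterf2 had -0.88 and -1.29, the lowest. Mitochondrial ribosomal protein genes had 51 of 76 lower and 6 higher in airway, and 44 and 10 in parenchyma. Of 15 regulators of mitochondrial biogenesis 7 were lower and 6 higher in airway, and 6 and 5 in parenchyma, near the shares of all genes. Among them Perm1 (-1.8, airway) and Esrrg (-1.47, parenchyma) were the lowest. The related coactivators Ppargc1a and Ppargc1b went in opposite directions, with Ppargc1a at -1.05 in airway and -1.13 in parenchyma and Ppargc1b at 1.70 and 2.20. Tfam, which packs and transcribes mitochondrial DNA, had -0.25 and -0.39, and Esrra, a nuclear receptor that binds promoters of these genes, had 0.19 (adjusted p = 0.077) and 0.38.

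The same lists were counted at 11 weeks with HDM and air, where 31.3% of all genes were higher and 29.8% lower in airway and 32.6% and 26.9% in parenchyma, and no difference between compartments was tested for a list. Fatty acid oxidation genes had 16 of 19 lower and 0 higher in airway, and 1 and 1 in parenchyma, and the citric acid cycle had 9 of 13 lower and 0 higher in airway and 0 lower and 5 higher in parenchyma. Glycolysis genes were higher in both, 14 and 16 of 18, with 2 and 0 lower. Assembly factors had 15 lower and 3 higher in airway and 3 and 9 in parenchyma, and genes of mitochondrial DNA expression 7 and 1, and 3 and 6. Mitochondrial ribosomal proteins had 10 lower and 7 higher in airway and 5 and 30 in parenchyma, and cytosolic ribosomal proteins 2 and 6, and 1 and 27. Regulators of biogenesis had 8 of 16 lower and 5 higher in airway and 4 and 5 in parenchyma. Ppargc1a had -1.81 (adjusted p = 8.4e-19) in airway and -0.53 (adjusted p = 0.033) in parenchyma, and Ppargc1b had 0.32 (adjusted p = 0.19) and 1.21 (adjusted p = 9.4e-06). The values for Tfam were -0.04 and -0.03.

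Per library, the contrast of the 2 genomes was summed up by the mean log2 level of the mitochondrially encoded genes less that of the nuclear-encoded members, and it is given without a test. At 3 weeks it was 4.27, 4.62 and 4.97 in PBS airway and 4.08, 4.41 and 5.05 in HDM airway, with overlap. In parenchyma it was 4.54, 4.76 and 5.12 with PBS and 4.16, 4.33 and 5.00 with HDM, again with overlap. The group medians of 11 weeks lay between 4.25 and 4.57, within the range of 3.84 to 5.19 over all libraries. The value rests on how the genes are averaged, since the median over genes in place of the mean turned the airway difference from -0.22 to 0.18, while the log2 ratio of summed counts gave -0.39.

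Single pairs of members varied together among libraries of one group to very different degrees. The correlation of deviations from the group mean had a median of 0.66 over 78 pairs of mitochondrially encoded genes (0.1 to 0.96), 0.69 over 3403 pairs of nuclear members (-0.57 to 0.97) and 0.48 over 1079 mixed pairs (-0.55 to 0.82). These pairs share libraries, depth and scaling, and the values are a description. Of the mitochondrially encoded genes, mt-Cytb had the highest median correlation with the other 12 (0.75) and mt-Nd6 the lowest (0.36).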

How the data were processed

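Airway and parenchyma of mouse lung were sequenced as 100 bp single reads. The deposited values are estimated counts, made by the authors with no normalization and held in a single table of genes by libraries ( 20.3% of non-zero values not whole). The submitters' processing notes name bcl2fastq 2.20.0.422, STAR 2.5.1b, RSEM 1.2.31, kallisto 0.44.0 and mm10, without saying which tool made the table, and no setting for reads that match several places is given in the sources used here. Estimated counts can move between a gene and a near-identical copy. Totals ran from 13003154 to 40240733 per library, and intervals from replicates cover the spread between libraries. Columns were matched to samples by the codes in their titles, and no 2 libraries were identical. Gene names, exon lengths and coordinates came from GENCODE M21 (GRCm38). Of 43346 identifiers, 42462 matched it without and 23106 with the version.

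Values were rounded to whole counts and tested with limma 3.58.1 voom (R 4.3.3) after TMM scaling (edgeR 4.0.16), with 1 mean per group and no covariate. Genes needed a CPM equal to 10 counts in the median library (0.377 at 3 weeks, 0.353 at 11 weeks) in 9 libraries, which left 17381 and 18250 genes, and 18528 in the fit of all libraries. The 43 libraries of 3 weeks and the 160 of 11 weeks were fitted separately. P-values were adjusted over all genes tested (Benjamini-Hochberg), with calls made at an adjusted p under 0.05. Levels are TMM-scaled CPM. Fits were tested on simulated data. Sequences came from RefSeq and GRCm38, and copies were annotated pseudogenes on the same strand with at least 97% identity over at least 100 bases (36 in all).

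Members and lists were chosen with earlier results of these data known. Named were all mitochondrially encoded members, the isoform and core subunit lists, the 3 called nuclear members with the highest and the 3 with the lowest log2 fold change in the 3-week comparisons, the extremes of each pathway list and 4 regulators (Ppargc1a, Ppargc1b, Esrra, Tfam). Other members were named after their values were seen. The result of 1 member that the rule names is not reported here. Other settings tried were DESeq2 1.42.0, the quasi-likelihood test of edgeR, DESeq2's size factors, scaling without the mitochondrially encoded genes, no filter, a CPM of 10 in 9 libraries, other sets of libraries in the fit and a term for runs of 20 library codes, which are not known to be batches. Leaving out 5 libraries, adding the counts of copies and a block of adjacent library codes (duplicateCorrelation in limma) for comparisons between compartments were chosen after seeing the data, as were the 11-week difference between compartments and the comparison of durations.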

Additional observations from a re-analysis of the deposited data

Results flagged for a closer look

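Single libraries were searched for values far from the rest of their group, in 18 groups of 10 or fewer libraries and 3 measures. Of these 54 sets 5 held such a library, where chance gives about 1 in 20. In airway with HDM, smoke and dexamethasone, library X59 had a mitochondrially encoded share of 6.13% while the others had 2.97% to 4.36%. In parenchyma with HDM, air and dexamethasone, library X32, the one with the lowest total, had a nuclear share of 0.323% while the others had 0.607% to 0.782%. In parenchyma with PBS and smoke, library X173 had a nuclear share of 0.949% and the others 0.582% to 0.694%. The mean log2 level of mitochondrially encoded less nuclear members was 4.96 in library X188 (parenchyma, PBS, air and dexamethasone, others 4.33 to 4.66) and 5.0 in library X4 (parenchyma, HDM, 3 weeks, others 4.16 to 4.57).

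Named members whose HDM effect differed between airway and parenchyma by the interaction test were all lower in airway at 3 weeks, by log2 differences of -0.27 for Ndufs1, -0.32 for Ndufv1, -0.27 for Sdha, -0.51 for Sdhb, -0.43 for Uqcrc1, -0.45 for Uqcrc2, -0.41 for Cox6b1, -0.28 for Atp5a1 and -0.56 for Atp5b. At 11 weeks with air the differences were -0.49 for mt-Nd1, -0.47 for mt-Nd2, -0.5 for mt-Nd4, -0.4 for mt-Nd5, -0.49 for mt-Cytb, -0.75 for mt-Co2, -0.68 for mt-Co3 and -0.66 for mt-Atp6. Among nuclear members they were -0.48 for Ndufs1, -0.5 for Ndufv1, -0.41 for Sdha, -0.67 for Sdhb, -0.56 for Cyc1, -0.5 for Uqcrc2, -0.66 for Uqcrfs1, -0.51 for Cox4i1, -1.57 for Cox6a2, -0.45 for Cox6b1, -0.86 for Cox7b, -0.5 for Atp5a1 and -0.58 for Atp5b, and 0.92 for Cox4i2.

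The HDM effect differed between smoke and air by 0.51 for mt-Nd2 and 0.46 for mt-Nd5 in airway. In parenchyma it differed by 1.15 for Cox4i2, -0.71 for Cox5a, -0.36 for Atp5a1 and -0.39 for Atp5b.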

How the results depend on the processing

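Of the counts of calls, per-library contrasts and share ratios recomputed under alternatives, 1012 stayed near the value reported and 84 moved, mostly small counts. A count stayed near if it was equal, 0 included, or within 1.5 times of the value reported. A contrast or ratio stayed near if it moved by less than the standard deviation between libraries. Of values for single named members 1614 kept their call, 53 gained one, 19 lost one and 1 reversed. No replicate number is shared by groups, and the labels do not say that any libraries came from one mouse. Adjacent library codes (1 and 2, 3 and 4, and so on) held airway and parenchyma of like exposure in 101 of 101 pairs. Such pairs as a replicate block, tried after seeing the data for the comparisons between compartments, had a consensus correlation of 0.13 at 3 weeks and 0.35 at 11 weeks. Nuclear members with a lower HDM effect in airway went from 17 to 20 at 3 weeks and from 46 to 65 at 11 weeks, and mitochondrially encoded genes at 11 weeks from 8 to 10. With PBS and air at 11 weeks 12 mitochondrially encoded genes and 71 nuclear members were higher in airway (10 and 63 reported), and with PBS at 3 weeks 7 nuclear members were lower (5 reported), while the other counts were the same. Levels of genes with a near-identical copy are limited by how reads were assigned, and low genes such as Cox8b by depth. The cause of each move was not tested.

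Without the 5 libraries that stood apart, nuclear members lower with HDM in airway at 11 weeks went from 32 to 51 and those lower with HDM and smoke from 24 to 41, nuclear members higher with HDM in airway at 3 weeks from 0 to 1, and with dexamethasone added to HDM and smoke in airway from 0 to 1. In parenchyma, mitochondrially encoded genes lower with HDM at 11 weeks went from 1 to 3, nuclear members higher with HDM and smoke from 5 to 3, and with dexamethasone added to HDM those higher from 0 to 1 and those lower from 2 to 1. Nuclear members with a higher HDM effect at 11 than at 3 weeks in airway went from 4 to 2.

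With DESeq2 the airway counts of 32 and 24 became 49 and 42, and with DESeq2 or edgeR nuclear members higher with dexamethasone and HDM in airway went from 3 to 5, higher in the airway interaction of HDM and smoke from 0 to 1, lower with dexamethasone and HDM in parenchyma from 2 to 1 and higher with dexamethasone and smoke there from 0 to 1. DESeq2 also gave 3 in place of 1 mitochondrially encoded genes lower with HDM in 11-week parenchyma and 3 in place of 5 nuclear members higher with HDM and smoke there. With DESeq2 size factors these were 2 and 3, and the 4 of the airway comparison of durations became 2.

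With scaling without mitochondrially encoded genes, 1 in place of 0 of these was higher with HDM in 3-week parenchyma, 30 in place of 17 nuclear members had a lower HDM effect in airway than in parenchyma, and 0 in place of 1 mitochondrially encoded gene was lower in airway than parenchyma with PBS. With a CPM of 10 the last pair of counts became 28 and 0, nuclear members higher with dexamethasone and HDM in airway 1, mitochondrially encoded genes lower with HDM in 11-week parenchyma 2, nuclear members higher with HDM and smoke there 3, and the 4 of the durations in airway 2. With no filter the count with PBS was also 0, nuclear members higher in parenchyma were 3 in place of 5 both with smoke and with HDM and smoke, mitochondrially encoded genes lower with HDM and smoke there 0 in place of 1, and the durations in airway gave 1 in place of 2 and 2 in place of 4.

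With only the groups of the comparison in the fit, 3-week counts became 1 mitochondrially encoded gene higher with HDM in parenchyma, and 2 higher and 3 nuclear members lower in airway than parenchyma with PBS (0, 1 and 5 reported). In airway, nuclear members lower with smoke went from 1 to 0 and mitochondrially encoded genes in the interaction from 2 to 1. In parenchyma with HDM at 11 weeks, 4 mitochondrially encoded genes and 3 nuclear members were lower (1 and 1 reported). With smoke 1 and 11 were higher (0 and 5), with HDM and smoke 15 nuclear members were higher and 2 lower (5 and 1), and in the interaction 1 mitochondrially encoded gene was higher, 1 lower and 17 nuclear members lower (0, 0 and 9). Dexamethasone with PBS and air gave 1 mitochondrially encoded gene and 7 nuclear members higher and 1 lower (0, 1 and 0), and with smoke 1 mitochondrially encoded gene lower and 1 nuclear member higher (0 and 0). The 8 mitochondrially encoded genes of the 11-week difference between compartments became 5, and the 2 of the durations in airway 1.

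With a term for runs of 20 library codes, 1 mitochondrially encoded gene was higher in the 3-week difference of compartments (0 reported), and 2 of these and 9 nuclear members were lower in airway than parenchyma with PBS (1 and 5). Nuclear members called with dexamethasone in PBS airway went from 0 to 1 in each direction, in the airway interaction from 0 to 1 higher, in parenchyma with dexamethasone from 1 to 2 higher with PBS, from 0 to 2 higher with HDM and from 1 to 2 lower with smoke, in the parenchyma interaction from 9 to 15 lower and for the durations in airway from 4 to 9 higher. Mitochondrially encoded genes lower with HDM in 11-week parenchyma went from 1 to 3. With the libraries of both durations in one fit this was 4, with 0 higher in place of 1, nuclear members higher were 16 in place of 26, those higher with HDM and smoke 3 in place of 5, and those higher with dexamethasone and HDM 1 in place of 0.

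With the counts of copies added, mitochondrially encoded genes higher in airway than parenchyma with PBS went from 1 to 0, since mt-Co2 turned from 0.67 to -0.14 (adjusted p = 0.31). In 11-week parenchyma with HDM 0 were higher and 2 lower (1 and 1 reported), and 1 in place of 2 was lower for the durations in airway. The difference of HDM and PBS in the per-library contrast of the genomes at 3 weeks was -0.22 in airway and -0.43 in parenchyma with the mean over genes, 0.18 and -0.18 with the median, and -0.39 and -0.76 with the ratio of summed counts.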
